A study of Mus musculus with 33 samples.

Results

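The 32 genes described here are markers of T cells and natural killer (NK) cells and the genes of their killing machinery. They were taken by symbol from a table of read counts with 54532 genes, and all 32 symbols were found. They fall into the T cell receptor complex (Cd3d, Cd3e, Cd3g, Cd247, Trac, Trbc1 and Trbc2), the coreceptors (Cd4, Cd8a and Cd8b1), other T cell surface and costimulatory molecules (Cd2, Cd5, Cd6, Cd27, Cd28, Icos and Thy1), T cell signalling and transcription (Lck, Zap70, Lat and Tcf7), granule and effector genes (Gzma, Gzmb, Gzmf, Prf1, Nkg7, Fasl, Ifng and Ccl5) and NK receptors (Klrk1, Klrd1 and Ncr1). RNA came from bulk mouse mammary tumours that, per the growth protocol, had been transplanted into mice, and every sample was labelled FVB, an inbred strain with a working immune system.

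MYT (11 libraries, titles without a suffix) and M20_7 (4 libraries, titles with the suffix _7) were tumours of mice given RP-6306, an inhibitor of the kinase PKMYT1 that restrains entry into mitosis. VEH (4 libraries, no suffix) and VEH_7 (3 libraries, suffix _7) were tumours of mice given vehicle. SPON (5 libraries) and WT (5 libraries) were untreated tumours. The dose of RP-6306 was 20 mg/kg, daily by the treatment protocol and with an abbreviation for dosing more than once a day in the sample labels. Neither the meaning of the suffix nor the treatment time of each tumour is given in the labels, nor which of SPON and WT carries cyclin E or PyMT, the transgenes that the design text names. Nor do they state that each library is from its own animal, and p-values therefore describe only how far these libraries vary, which may be technical. One vehicle-titled sample whose treatment label contradicts its title was left out.

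A T cell recognises its target through a receptor that signals by way of the CD3 chains and CD247, with CD4 or CD8 holding the target's MHC molecule and the kinases LCK and ZAP70 passing the signal to the adaptor LAT. NK cells have no such receptor and read stress ligands and missing MHC through receptors such as NKG2D (Klrk1), CD94 (Klrd1) and NKp46 (Ncr1). Both cell types kill by releasing perforin, which opens the target's membrane, and granzymes, proteases that enter through it.

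Libraries held 26517748 to 34637096 counts in the _7 set and 13701115 to 20105407 counts in the other groups, and the weight of 1 count in CPM (counts scaled to library size) was 0.0288 to 0.0379 in the _7 set and 0.0486 to 0.079 elsewhere. The 32 genes together made up 0.00334% to 0.0338% of a library's counts, and 15 to 32 of them had at least 1 count in a library. The mammary label was checked against the epithelial marker Epcam. It averaged 1425 CPM in MYT, 70.9 CPM in VEH, 1398 CPM in SPON and 917 CPM in WT. In M20_7 and VEH_7 it averaged 3.98 and 5.01 CPM, so this marker was near 0 in both groups of the _7 set. Summed luminal epithelial markers averaged 69.1 CPM in M20_7 and 62.2 CPM in VEH_7, against 1252 to 7003 CPM in the other groups. Summed basal epithelial markers averaged 193 CPM in M20_7 and 164 CPM in VEH_7, nearer to MYT (273 CPM), SPON (228 CPM) and WT (224 CPM). In VEH the basal sum averaged 1258 CPM. Mitochondrial genes held 20.0% and 23.6% of the counts in SPON replicates 1 and 5 and at most 7.75% in any other library.

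Levels per length of exon varied widely among the 32 genes. The highest group means were 82.4 RPKM (CPM per kilobase of exon) for Gzmf in VEH, 34.0 RPKM for Tcf7 in MYT, 34.0 RPKM for Ccl5 in M20_7 and 24.6 RPKM for Thy1 in VEH. Counting those with a mean of at least 1 RPKM, there were 4 in MYT (Tcf7, Thy1, Ccl5 and Cd4), 12 in VEH, 21 in M20_7, 10 in VEH_7, 5 in SPON and 6 in WT. M20_7 had the highest group mean for 26 of the 32 genes, VEH for 5 and MYT for 1, which was Tcf7. WT had the lowest mean for 19 genes and MYT for 9. Summed over the 7 receptor complex genes, levels ran between 0.6 and 7.3 CPM in MYT, 2.2 and 6.8 CPM in VEH, 10.3 and 45 CPM in M20_7, 4.7 and 13.3 CPM in VEH_7, 0.7 and 15.2 CPM in SPON, and 1.2 and 4.5 CPM in WT. The summed level of the 3 NK receptors ran between 0.2 and 1.2 CPM in MYT, 1.5 and 5.9 CPM in VEH, 8.5 and 19.6 CPM in M20_7, 4.0 and 12.8 CPM in VEH_7, 0.2 and 3.6 CPM in SPON, and 0.1 and 1.8 CPM in WT. M20_7 and VEH_7 had the highest mean sums of receptors of both cell types. Their receptor complex ranges overlapped those of other groups, and the NK receptor range of VEH_7 overlapped that of VEH. The NK receptor range of M20_7 lay above those of all groups outside the _7 set. In contrast, the 8 granule and effector genes reached their highest sum in VEH, with 10.6 to 218.5 CPM there against 24.2 to 46.2 CPM in VEH_7.

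**Figure D1:**
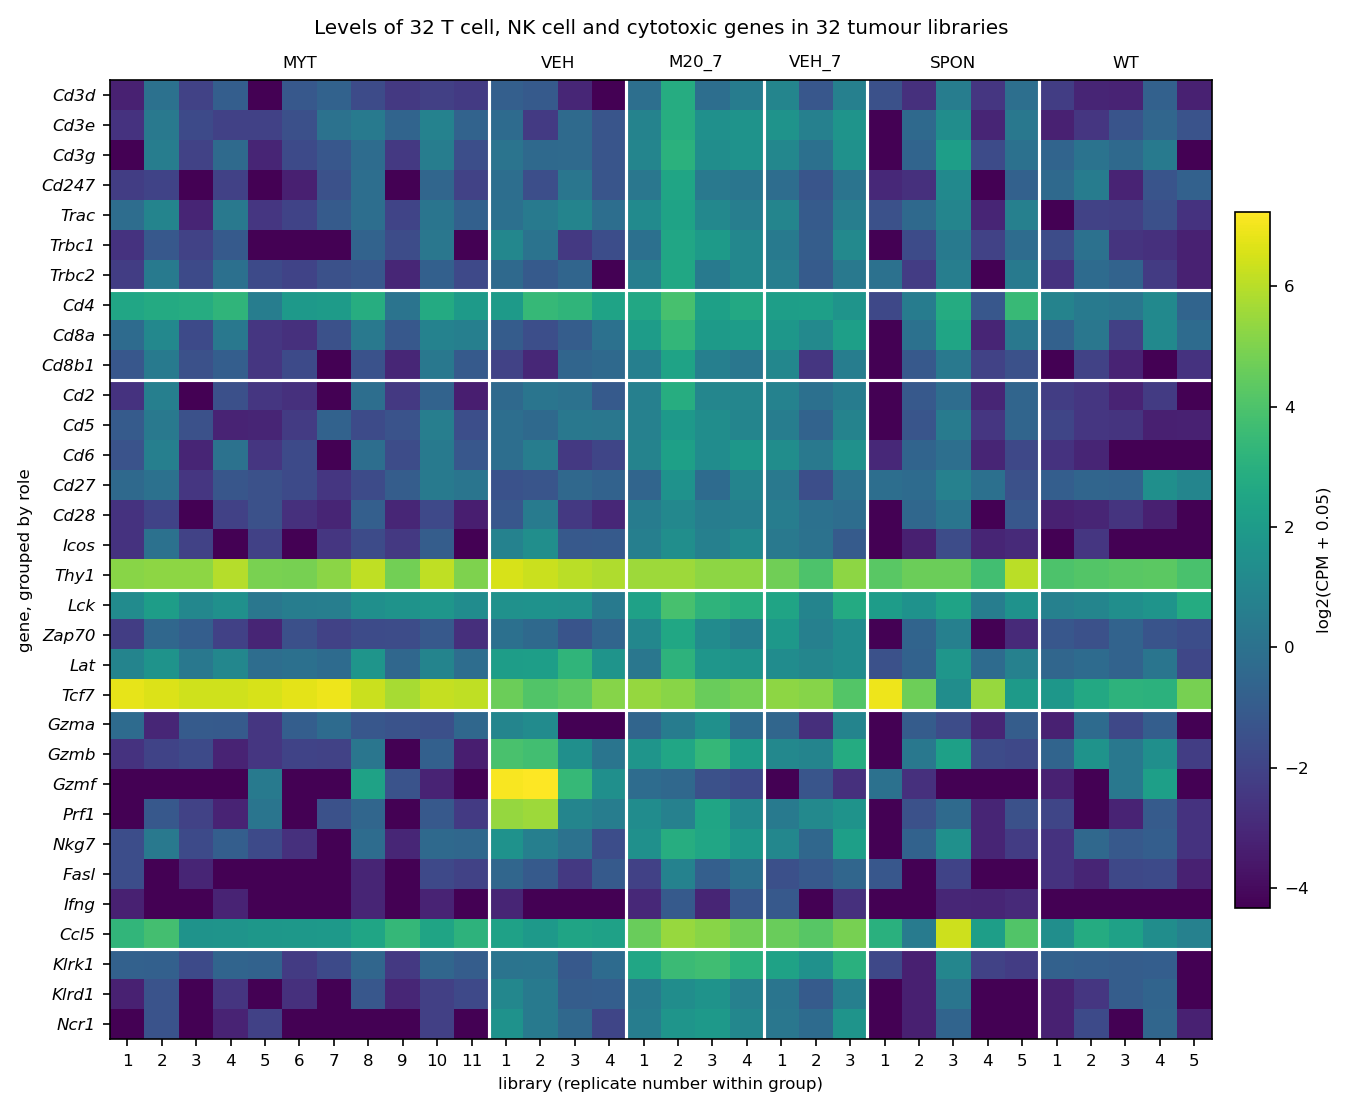
Levels of the 32 genes as log2(CPM + 0.05) in all 32 libraries, with genes in rows ordered by role and libraries in columns ordered by group. M20_7 has the highest mean for 26 of the 32 genes, while Gzmf and Prf1 are brightest in VEH replicates 1 and 2 and Tcf7 in MYT and SPON replicate 1.

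Across the 6 groups, 29 of the 31 genes tested differed somewhere among the groups (edgeR quasi-likelihood F test, Benjamini-Hochberg adjusted p under 0.05 over all genes), but 85.7% of all 18184 genes tested did so as well. The 2 that did not pass were Cd27 (adjusted p 0.0573) and Gzma (adjusted p 0.0955), and Ifng, the gene of interferon gamma, had too few counts to be tested. Ifng had at most 0.431 CPM in any library and no count in any WT library.

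In RP-6306 against vehicle among the tumours without a suffix, the killing genes Gzmb, Gzmf and Prf1 were lower in MYT, and no gene of the T cell receptor complex passed the test. Gzmf and Prf1 also had low means in the untreated SPON and WT tumours, as given below. Of the 32 genes, 21 passed the filter on low counts. Gzmb, Gzmf and Prf1, with 46, 102 and 52 counts over the 11 MYT libraries, passed it through VEH, the group where they were high. By edgeR, Tcf7 rose in MYT, and Gzmb, Gzmf, Prf1, Nkg7, Lat and Thy1 fell. These 7 calls stand against a background in which 59.5% of the 16021 genes tested were called, 30.5% higher and 29.0% lower, so the share of the 32 genes called was below that of all genes. The median log2 fold change of the 21 tested genes was -0.85, and that of all genes tested was 0.04. In bulk tissue, fewer cells of a type and less RNA per cell cannot be told apart.

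Gzmf encodes granzyme F, one of a group of mouse granzymes known from activated killer cells. Its gene (ENSMUSG00000015441) lies at chr14:56205263-56211417 on the minus strand. Gzmf had between 0 and 4.98 CPM in MYT with a median of 0 and no count in 7 of 11 libraries, against 139, 151, 10.8 and 2.64 CPM in VEH replicates 1 to 4. The highest MYT library lay above the lowest VEH library, and VEH replicates 1 and 2 lay far above all others. Gzmf averaged 0.603 CPM in MYT, 0.207 CPM in SPON, 1.16 CPM in WT, 0.513 CPM in M20_7 and 0.154 CPM in VEH_7. Its low level was therefore not particular to MYT. The log2 fold change was -7.01 ± 1.06 (SE, adjusted p 2.57e-05), and -8.85 without MYT replicate 8.

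Prf1 (ENSMUSG00000037202, chr10:61297833-61304680, plus strand) encodes perforin. It had 0 to 1.07 CPM in MYT with a median of 0.189, against 41.9, 46.9, 1.86 and 1.43 CPM in VEH, and the groups did not overlap, as for 35.1% of all genes tested. The log2 fold change was -6.27 ± 0.81 (adjusted p 4.99e-06). Prf1 averaged 0.297 CPM in MYT, 0.288 CPM in SPON and 0.169 CPM in WT, so its low level was not particular to MYT. In M20_7 and VEH_7 it averaged 2.98 and 2.16 CPM. Gzmb (ENSMUSG00000015437, chr14:56258838-56262260, minus strand), the granzyme that sets off caspase-dependent death in the target cell, had 0 to 1.11 CPM in MYT with a median of 0.192, against 15, 13.1, 2.69 and 1.07 CPM in VEH. Only the lowest VEH library fell within the range of MYT. The log2 fold change was -4.92 ± 0.66 (adjusted p 7.1e-06). Gzmb averaged 0.259 CPM in MYT, the lowest of all groups, against 1.28 CPM in SPON and 1.54 CPM in WT, with overlapping ranges. Nkg7, a granule membrane protein needed for granule release, had 0 to 1.22 CPM in MYT with a median of 0.278, against 2.87, 1.52, 0.967 and 0.286 CPM in VEH, and fell by 1.67 ± 0.64 on the log2 scale (adjusted p 0.0325). The groups overlapped, and the call was lost without VEH replicate 1 (-1.04, adjusted p 0.233) or VEH replicate 2 (adjusted p 0.0689). Gzma, the other widely expressed granzyme, was not called, at -1.23 ± 0.73 (adjusted p 0.156), with 1.89 and 2.31 CPM in VEH replicates 1 and 2 and no count in VEH replicates 3 and 4.

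VEH replicates 1 and 2 carried most of the granule RNA of that group. With both left out, a choice made after seeing the data, Prf1 was at -2.45 (adjusted p 0.0344), Gzmb at -2.84 (adjusted p 0.00665) and Gzmf at -3.49 (adjusted p 0.0421), all still called, while Nkg7 was at -0.5 (adjusted p 0.684). The number called was then 6, and 7625 over all genes. Gzma was among the 6 as higher in MYT, since the VEH libraries left had no count of it. These 2 libraries had summed receptor complex levels of 6.8 and 4.3 CPM, against 5.2 and 2.2 CPM in VEH replicates 3 and 4, and summed basal epithelial marker levels of 1907.5 and 2402.5 CPM, against 547.4 and 175.6 CPM. The basal markers did not move together in MYT against VEH. Acta2 was at -4.31 ± 0.42, while Krt14 was at 2.60 ± 0.62 and Krt17 at 2.62 ± 0.57. Which of these markers made up the sums in VEH replicates 1 and 2 was not tested. The part of the basal epithelium in the result was not tested.

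Gzmf sits on chromosome 14 in a run of granzyme genes that spans 144.6 kb between Gzme and Gzmb (GRCm38, GENCODE M21). The other granzymes of this run were looked at after the values of Gzmf were seen. Gzmc had a log2 fold change of -4.06 ± 0.62 in MYT against VEH (adjusted p 2.78e-05), Gzmd one of -4.30 ± 0.69 (adjusted p 5e-05) and Gzme one of -2.22 ± 0.61 (adjusted p 0.00472), a call that limma voom did not make (adjusted p 0.177). Gzmg had 0 to 2.69 CPM in MYT, against 129, 137, 6.08 and 1.93 CPM in VEH, and a log2 fold change of -7.12 ± 0.94 (adjusted p 6.58e-06). Without VEH replicates 1 and 2, Gzmc was at -1.95 (adjusted p 0.034) and Gzmg at -2.99 (adjusted p 0.0348), whereas Gzmd was at -0.49 (adjusted p 0.601) and Gzme at 1.17 (adjusted p 0.149). In MYT, Gzmd and Gzme averaged 2.50 and 4.07 CPM, above Gzmf at 0.603 CPM and Gzmg at 0.505 CPM. The transcripts of Gzmc to Gzmg share 71.6% to 93.4% of their bases, with Gzmd and Gzme the closest pair, so the split of reads among them is uncertain, though at most 0.2% of the 100-base windows of one were found unchanged in another.

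**Figure D2:**
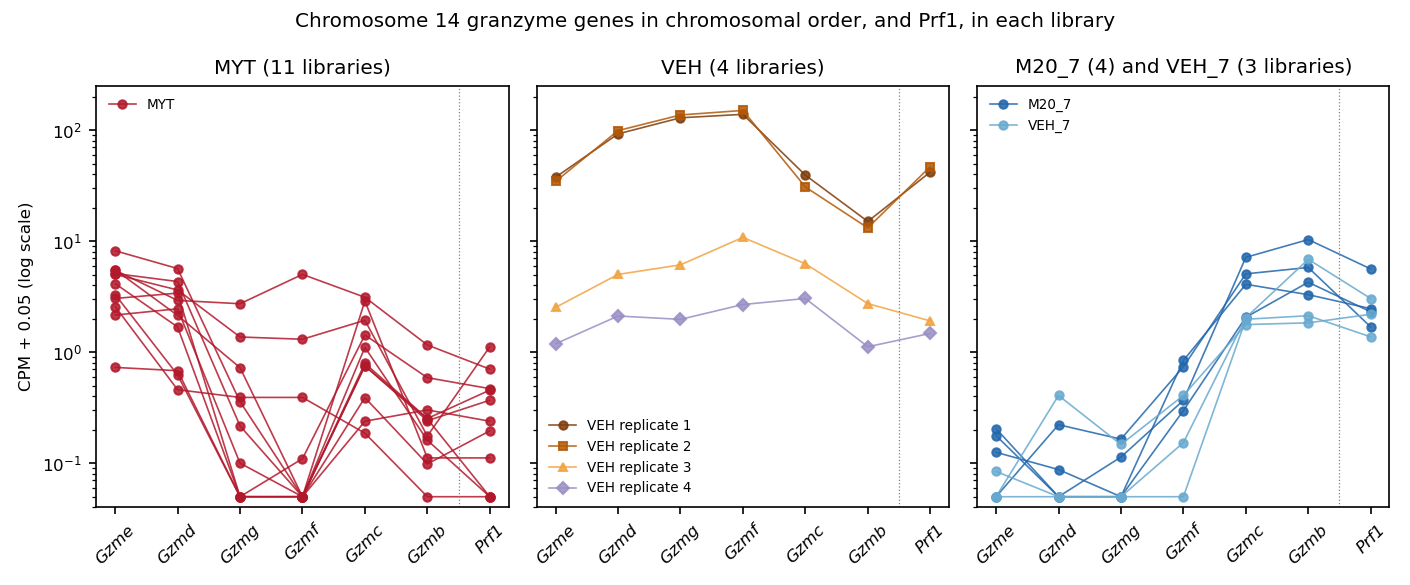
Levels (CPM + 0.05, log axis) of the granzyme genes of chromosome 14 in chromosomal order and of Prf1, 1 line per library, with MYT, VEH and the _7 set in separate panels. VEH replicates 1 and 2 lie at or above 13.1 CPM for all 7 genes, and in the _7 set Gzmd to Gzmg lie below 1 CPM while Gzmb, Gzmc and Prf1 lie above 1 CPM.

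The promoters of Gzmf, Gzmg, Gzmb and Prf1 are shown because these genes had the largest log2 fold changes among the called members and the granzymes of this run. They are 300-base windows around the annotated start from RefSeq (GRCm38.p6), written 5' to 3' on the gene's strand. The Gzmf window is chr14:56211358-56211657 (minus strand), Gzmg chr14:56159530-56159829 (minus strand), Gzmb chr14:56262285-56262584 (minus strand) and Prf1 chr10:61297586-61297885 (plus strand). Capitals mark matches to TGTGGT on either strand (read as ACCACA on the other), the core bound by RUNX factors, and to TGANTCA, the site of AP-1, which reads the same pattern on both strands.
Gzmf: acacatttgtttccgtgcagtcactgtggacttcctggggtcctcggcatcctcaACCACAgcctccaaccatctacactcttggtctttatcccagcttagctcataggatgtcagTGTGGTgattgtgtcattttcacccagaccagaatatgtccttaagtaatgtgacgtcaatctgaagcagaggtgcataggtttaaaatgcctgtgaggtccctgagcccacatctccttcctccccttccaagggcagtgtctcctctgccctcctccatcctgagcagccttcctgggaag
Gzmg: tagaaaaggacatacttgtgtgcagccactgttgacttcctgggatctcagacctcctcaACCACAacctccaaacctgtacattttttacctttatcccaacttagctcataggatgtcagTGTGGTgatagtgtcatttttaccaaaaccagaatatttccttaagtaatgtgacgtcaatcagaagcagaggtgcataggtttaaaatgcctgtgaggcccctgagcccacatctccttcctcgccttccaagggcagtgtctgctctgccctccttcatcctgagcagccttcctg
Gzmb: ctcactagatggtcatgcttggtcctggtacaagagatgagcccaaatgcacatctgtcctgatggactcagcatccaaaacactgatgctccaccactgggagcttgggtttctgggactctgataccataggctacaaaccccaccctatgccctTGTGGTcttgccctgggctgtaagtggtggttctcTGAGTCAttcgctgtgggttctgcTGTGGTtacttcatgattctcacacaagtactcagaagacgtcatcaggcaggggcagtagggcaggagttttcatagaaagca
Prf1: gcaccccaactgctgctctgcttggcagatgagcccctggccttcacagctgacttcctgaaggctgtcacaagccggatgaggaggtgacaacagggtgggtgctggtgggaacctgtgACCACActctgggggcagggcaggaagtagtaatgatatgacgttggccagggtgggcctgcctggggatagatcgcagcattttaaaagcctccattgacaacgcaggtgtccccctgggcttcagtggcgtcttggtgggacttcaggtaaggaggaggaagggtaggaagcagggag
The windows of Gzmf and Gzmg hold a RUNX match on each strand at the same spacing, at -195 and -133 bases from the start in Gzmf and at -190 and -128 in Gzmg. Gzmd at -174 and -112 and Gzme at -175 and -113 hold the pair at that spacing too, Gzmc holds 1 match on each strand at -174 and -108, and the windows of these 5 genes are 83.8% to 93.7% identical. Gzmb holds RUNX matches at -93 and -34 and an AP-1 match at -58, and Prf1 a RUNX match at -130. Of all 32817 promoter windows of this length in the table, 16.8% hold the RUNX letters and 7.8% the AP-1 letters. The Tcf7 window holds neither. A match describes letters and does not show that a factor binds there.

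Among the T cell genes outside the granules, Tcf7, Lat and Thy1 passed the test. Tcf7 (ENSMUSG00000000782, chr11:52252371-52283014, minus strand) encodes TCF-1, a transcription factor of the Wnt pathway that keeps T cells in a naive or stem-like state and is also expressed outside the T cell lineage. It had 52.2 to 124 CPM in MYT with a median of 84.8, against 24.8, 17.3, 20.6 and 35.6 CPM in VEH, so every MYT library lay above every VEH library. The log2 fold change was 1.86 ± 0.22 (adjusted p 1.97e-06). Lat had 0.684 to 3.21 CPM in MYT with a median of 1.2, against 4.24, 4.48, 9.53 and 3.07 CPM in VEH, and fell by 1.78 ± 0.40 on the log2 scale (adjusted p 0.00101). Thy1, a surface protein of mouse T cells that fibroblasts also carry, had 27.6 to 69.4 CPM in MYT with a median of 37.3, against 91.6, 78.4, 65.8 and 58.5 CPM in VEH, and fell by 0.78 ± 0.24 (adjusted p 0.0099). Both pairs of ranges overlapped at 1 end. Without VEH replicates 1 and 2, Thy1 was at -0.53 (adjusted p 0.175), and Lat at -2.02 and Tcf7 at 1.69 were still called.

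No gene of the receptor complex and no coreceptor passed. Cd3e, a signalling chain of the complex, had 0.111 to 1.68 CPM in MYT with a median of 0.583, against 0.783, 0.144, 0.76 and 0.357 CPM in VEH, at a log2 fold change of 0.38 ± 0.66. Cd4 was at -0.49 ± 0.43 and Cd8a at 0.70 ± 0.68, with overlapping ranges for all 3 genes. The 14 tested genes without a call ran between -1.43 for Cd247 and 0.70 for Cd8a. The 11 genes not tested were Cd3d, Cd8b1, Cd28, Icos, Zap70, Trbc1, Trbc2, Klrd1, Ncr1, Fasl and Ifng. At 120 counts of Cd3e over all 11 MYT libraries, the depth limits what this comparison can show. The NK receptors had little RNA in MYT. Of these, Klrk1 alone was tested and was not called by edgeR, at -0.89 ± 0.41 (adjusted p 0.0681). It had 0.137 to 0.66 CPM in MYT, against 1.04, 1.08, 0.414 and 0.785 CPM in VEH, with overlap. The mean of Klrk1 was 0.444 CPM in MYT, 0.508 CPM in SPON and 0.408 CPM in WT, so the low level was not particular to MYT. Klrd1, with 0 to 0.393 CPM in MYT against 1.96, 1.3, 0.483 and 0.5 CPM in VEH, did not overlap between the groups but had too few counts for the filter. Ncr1 had 0 to 0.338 CPM in MYT, against 2.87, 1.3, 0.691 and 0.214 CPM in VEH, and also was not tested. When low counts were not filtered, 11 of the 32 genes were called, with Fasl (-2.26), Icos (-2.51), Klrd1 (-2.87) and Ncr1 (-4.08) added, all lower in MYT. DESeq2 called 12. The counts over all genes were 10202 without the filter and 10286 by DESeq2, against 9531.

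Genes of the same pathways that are not among the 32 moved in both directions. Beside the counts of these lists and of the cell markers below, 59.5% of all genes tested were called, 30.5% higher and 29.0% lower. Of 15 tested genes of T cell receptor signalling, 8 fell and 1 rose, with Lcp2 (the adaptor SLP-76) at -1.67 ± 0.17 (adjusted p 3.01e-07), Nfatc2 (the transcription factor NFAT1) at -2.52 ± 0.27 (adjusted p 6.1e-07) and Fyb (an adaptor of integrin activation) at -1.19 ± 0.13 (adjusted p 9.21e-07). Of 18 tested cytotoxic and NK genes, 9 fell and 2 rose. The 2 with the smallest p were the ones that rose, Tnfsf10 (the death ligand TRAIL) at 2.09 ± 0.25 (adjusted p 2.68e-06) and Il18r1 (an interleukin-18 receptor chain) at 2.90 ± 0.40 (adjusted p 1.11e-05).

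Of 12 tested homing chemokines and receptors, 6 fell and 4 rose. S1pr1, the receptor that guides lymphocytes out of tissue and is also found on endothelium, was at -1.96 ± 0.19 (adjusted p 2.93e-07). Cxcl11, a chemokine that attracts CXCR3-bearing T cells, was at 3.98 ± 0.59 (adjusted p 2.03e-05). Of 8 tested NK ligands, 4 fell and 1 rose: Nectin2, a ligand of DNAM-1, was at 1.38 ± 0.19, and the NKG2D ligands H60b and Raet1e were at -3.24 ± 0.62 and -2.22 ± 0.49. Of 9 tested death receptor and granzyme inhibitor genes, 3 fell and 1 rose. The 3 that fell were all serpins, Serpinb9 (an inhibitor of granzyme B) at -1.81 ± 0.24, Serpinb6b at -4.14 ± 0.62 and Serpinb9b at -3.78 ± 0.74. All 3 tested genes of the gamma delta T cell list were called. Sox13 was at 2.02, and Trdc, the constant region of the delta chain, was at -2.25.

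Markers of other cells moved with these genes. All 10 luminal epithelial markers rose, with summed levels of 4054 to 10050 CPM in MYT against 621 to 1852 CPM in VEH. All 10 macrophage markers fell, with sums of 940 to 2290.5 CPM in MYT against 3631 to 5006 CPM in VEH, as did 7 of 8 fibroblast markers, with sums of 764 to 4280 CPM in MYT against 9794 to 16773 CPM in VEH, and all 7 endothelial markers. Of 7 tested dendritic cell markers 3 fell and 2 rose, of 6 tested neutrophil markers 1 fell and 4 rose, and of 3 tested B cell markers 1 fell and 1 rose, of 2 tested plasma cell markers 1 rose, of 5 tested basal epithelial markers 1 fell and 2 rose, and of 2 tested adipocyte markers 1 fell. The part of these cells in the results above was not tested.

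In the _7 set, RP-6306 against vehicle gave no call among the 32 genes, all of which were tested, and none among the 16699 genes tested (0.0% called). By edgeR's unadjusted p under 0.05 there were 6 of the 32 genes and 1033 of all genes. DESeq2 called 0 of the 32 genes (15 by unadjusted p) and 61 of all genes (1239 by unadjusted p), and limma voom called 0 of the 32 (7 by unadjusted p) and 0 of all genes (1026 by unadjusted p). All 32 log2 fold changes were positive, with a median of 0.89 against 0.01 for all genes tested. Genes of 1 cell type share their source, so this count is not one of 32 independent signs.

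Cd247, the zeta chain of the receptor complex, had 1.13, 5.49, 1.24 and 1.12 CPM in M20_7, against 0.834, 0.358 and 1.03 CPM in VEH_7, a log2 difference of 1.60 ± 0.68 (adjusted p 0.797). Every M20_7 library lay above every VEH_7 library, 3 of them by a small margin. Icos, a costimulatory receptor of activated T cells, had 1.55, 2.56, 1.59 and 2.3 CPM in M20_7, against 1.21, 0.977 and 0.448 CPM in VEH_7, at 1.19 ± 0.41 (adjusted p 0.762). Cd4 had 6.05, 14.6, 4.69 and 6.14 CPM in M20_7, against 4.43, 4.59 and 3.07 CPM in VEH_7, at 0.97 ± 0.38 (adjusted p 0.785). The groups did not overlap for these 3 genes and overlapped for the other 29, where 6.67% of the 16699 genes tested did not overlap. Cd8a, the coreceptor chain of killer T cells, had 4.08, 9.89, 3.83 and 4.19 CPM in M20_7, against 3.45, 2.12 and 4.58 CPM in VEH_7, at 0.70 ± 0.40 (adjusted p 0.836). Klrk1 had 5.71, 11.8, 13.0 and 8.1 CPM in M20_7, against 4.96, 2.8 and 8.13 CPM in VEH_7, at 0.87 ± 0.38 (adjusted p 0.797). Gzmb was at 0.72 ± 0.52 and Prf1 at 0.46 ± 0.45, and Tcf7 at 0.10 ± 0.27.

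M20_7 replicate 2 was the highest of its group in 23 of the 32 genes, and VEH_7 replicate 2 the lowest of its group in 25. Without M20_7 replicate 2, the median log2 fold change was 0.48 with 27 of 30 tested genes positive, and without VEH_7 replicate 2 it was 0.55 with 30 of 32 positive. Leaving out any other library gave medians between 0.9 and 1.19. M20_7 replicate 2 also stood apart in B lineage RNA. Its 10 B cell markers summed to 206.0 CPM, against 42.3, 63.0 and 64.2 CPM in the other M20_7 libraries and 72.5, 45.5 and 94.9 CPM in VEH_7, and its 7 plasma cell markers to 319.2 CPM, against 3.1, 12.6 and 8.0 CPM in the other M20_7 libraries and 4.5, 1.8 and 5.5 CPM in VEH_7. No B cell or plasma cell marker was called between the groups, and the part of these cells in the values above was not tested. None of the pathway genes outside the 32 was called either, in any of the 6 lists.

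**Figure D3:**
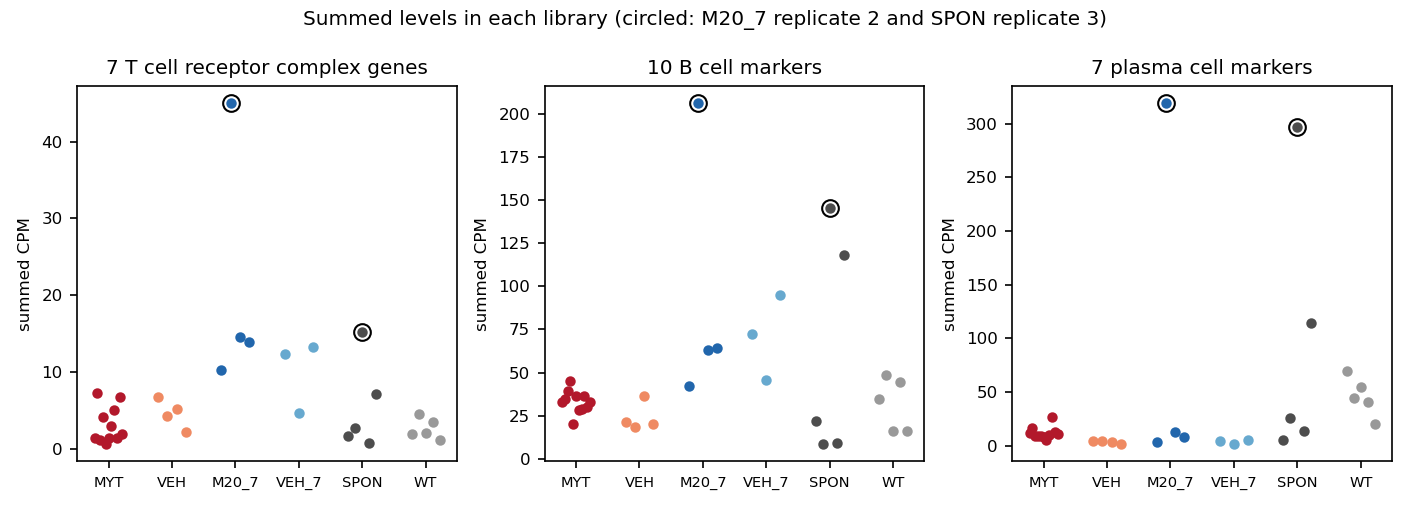
Summed CPM per library of the 7 T cell receptor complex genes, 10 B cell markers and 7 plasma cell markers, 1 point per library by group, with M20_7 replicate 2 and SPON replicate 3 circled. Both circled libraries are the highest of their group in all 3 sums, with plasma cell sums of 319.2 and 297.2 CPM.

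**Figure D4:**
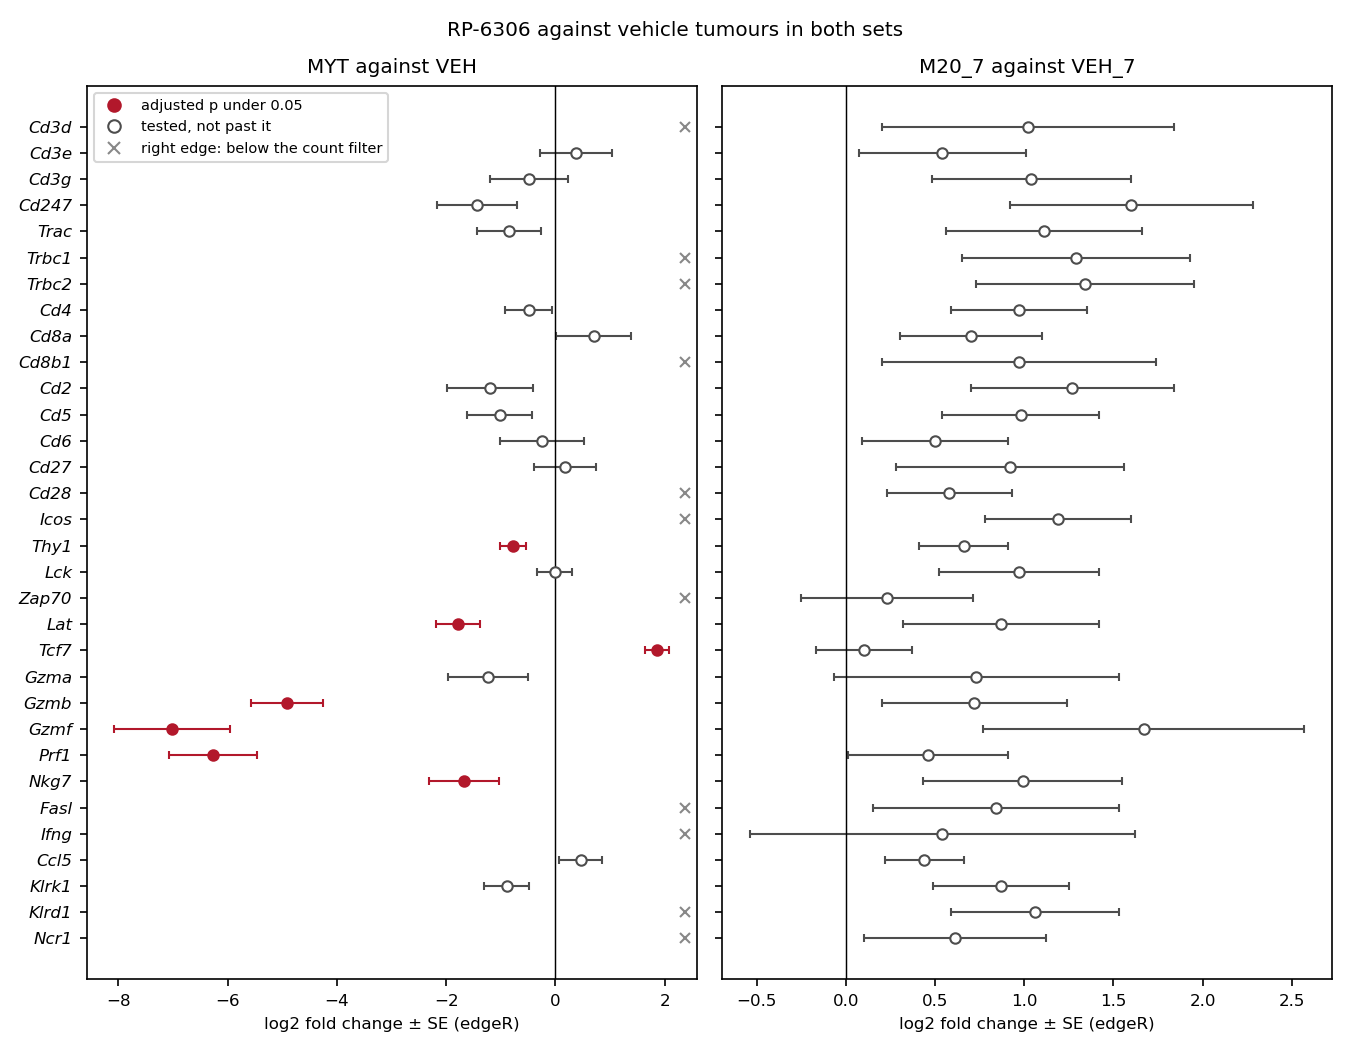
Log2 fold changes with standard errors for MYT over VEH and for M20_7 over VEH_7 (log2 axes of different range), with genes in rows ordered by role and crosses at the right edge for genes below the count filter. Granule genes lie between -7.01 and 0.46 in MYT over VEH, and all 32 genes lie between 0.10 and 1.67 in M20_7 over VEH_7.

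The difference between the sets, the MYT over VEH log2 fold change minus that of M20_7 over VEH_7, was tested for 31 genes in 1 fit over the 4 groups. It was called for 13 genes, 1 higher (Tcf7) and 12 lower, where 36.0% of all genes tested were called, 17.0% higher and 18.9% lower. The median over the 31 genes was -1.95 and over all genes 0.01. The NK receptors were called, Klrk1 at -1.75 ± 0.58 (adjusted p 0.0224), Klrd1 at -3.95 ± 0.93 (adjusted p 0.00212) and Ncr1 at -4.74 ± 1.13 (adjusted p 0.00241). Of the granule and effector genes, the calls were Gzmb at -5.65 ± 1.09 (adjusted p 0.00039), Gzmf at -8.64 ± 2.12 (adjusted p 0.00301), Prf1 at -6.74 ± 1.33 (adjusted p 0.00048), Nkg7 at -2.65 ± 1.0 (adjusted p 0.0418) and Fasl, the ligand of the death receptor FAS, at -3.11 ± 1.12 (adjusted p 0.0329).

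Of the T cell genes, Tcf7 differed by 1.77 ± 0.36 (adjusted p 0.000615), Icos by -3.71 ± 1.09 (adjusted p 0.0109), Thy1 by -1.43 ± 0.41 (adjusted p 0.00842), Lat by -2.64 ± 0.75 (adjusted p 0.00844) and Cd247 by -3.02 ± 1.14 (adjusted p 0.0422). Klrd1, Ncr1, Icos and Fasl had too few counts to be tested in MYT against VEH and passed the filter here with the _7 libraries added, so their calls are a description. The coreceptors Cd4 (-1.44 ± 0.69), Cd8a (0.01 ± 0.64) and Cd8b1 (-0.80 ± 1.17) and the CD3 chain Cd3e (-0.15 ± 0.94) were not called, and the 18 genes without a call ran between -2.86 for Trbc1 and 0.02 for Ccl5. Without VEH replicates 1 and 2 the number called was 6, and the calls of Icos (-2.14), Gzmf (-5.16), Prf1 (-2.94), Nkg7 (-1.51), Klrk1 (-1.3), Fasl (-2.59) and Cd247 (-3.21) were lost. Cd247 also lost its call in 9 of the 22 fits that left out 1 library, Nkg7 in 8, Fasl in 5 and Klrk1 in 3. In a fit over all 32 libraries 8 genes were called, and the calls of Tcf7 (adjusted p 0.178), Klrk1 (adjusted p 0.178), Nkg7 (adjusted p 0.133), Cd247 (adjusted p 0.126) and Fasl (adjusted p 0.0794) were lost. Markers of other cells differed between the sets as well: 8 of 10 luminal epithelial markers were higher, and 7 of 10 macrophage, 7 of 8 fibroblast and 7 of 7 endothelial markers were lower, as were 2 of 5 tested B cell and 2 of 4 tested plasma cell markers. Their part in the result was not tested.

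The vehicle tumours of the sets were compared directly, VEH over VEH_7. They differ in depth and in whatever the suffix stands for, which cannot be told apart. Of 29 genes tested, 3 were higher in VEH and 5 lower, where 31.0% of all genes were called, 15.4% higher and 15.6% lower. The genes lower in VEH were Cd3e, Cd8a, Klrk1, Ccl5 and Zap70, and the other 5 tested genes of the receptor complex were not called. Cd3e, with 12, 2, 11 and 5 counts in VEH, and Cd8a, with 7, 4, 7 and 13, passed the count filter through VEH_7, where they were high. Cd3e had the VEH levels given above, against 2.99, 1.6 and 3.07 CPM in VEH_7, a log2 fold change of -2.29 ± 0.53 (adjusted p 0.0115). Cd8a had 0.457, 0.289, 0.483 and 0.928 CPM in VEH, against 3.45, 2.12 and 4.58 CPM in VEH_7, at -2.63 ± 0.46 (adjusted p 0.00321). Klrk1 had 1.04, 1.08, 0.414 and 0.785 CPM in VEH, against 4.96, 2.8 and 8.13 CPM in VEH_7, at -2.66 ± 0.46 (adjusted p 0.00312). The groups did not overlap for any of these 3 genes, nor for 40.1% of all genes tested. Ccl5, a chemokine that draws in T cells and that T cells, NK cells and other cells make, had 4.9, 3.61, 5.39 and 4.78 CPM in VEH, against 24.2, 18.7 and 29.2 CPM in VEH_7, at -2.36 ± 0.22 (adjusted p 0.000168). Zap70 was at -1.93 ± 0.44 (adjusted p 0.0106).

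The 3 genes higher in VEH than in VEH_7 were Gzmf, Thy1 and Lat. Gzmf had 0, 0.358 and 0.103 CPM in VEH_7, 14 counts in all, and the ratio of VEH to VEH_7 from summed counts was 470 (95% exact interval 280 to 861, counting error only), with a fitted log2 fold change of 8.83 ± 1.75 (adjusted p 0.00587). Every VEH library lay above every VEH_7 library, and Gzmf passed the count filter through VEH. Limma voom did not call it (adjusted p 0.226). The same ratio was 393 for Gzmd (219 to 788), 1650 for Gzme (296 to 65400, 1 count in VEH_7) and 1990 for Gzmg (680 to 9650, 3 counts in VEH_7). Thy1, with 26.3, 16.0 and 38.7 CPM in VEH_7, was at 1.45 ± 0.28 (adjusted p 0.00552). Lat, with 2.39, 1.95 and 2.41 CPM in VEH_7, was at 1.25 ± 0.40 (adjusted p 0.0428) and lost its call in 6 of 7 fits without 1 library. Prf1 was not called at 3.42 ± 1.17 (adjusted p 0.0527), nor was Gzmb at 1.17 ± 0.84 (adjusted p 0.319). Limma voom also did not call Gzmd (adjusted p 0.163) or Gzme (adjusted p 0.0605). Without VEH replicates 1 and 2, which hold most of these counts, the fitted log2 fold change was 5.36 for Gzmf and 4.77 for Gzmd, both called. The fit over all 32 libraries did not call Cd3e (adjusted p 0.0953) or Cd8a (adjusted p 0.0786).

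Other cell markers differed between the vehicle groups too, where 15.4% of all genes tested were higher in VEH and 15.6% lower. Higher in VEH were 4 of 6 tested neutrophil, 4 of 10 luminal and 3 of 5 tested basal epithelial markers, with luminal sums of 621 to 1852 CPM in VEH against 35.2 to 101.2 CPM in VEH_7. Lower in VEH were 4 of 8 dendritic cell, 3 of 10 macrophage and 2 of 5 tested B cell markers, while 1 macrophage and 1 B cell marker were higher. Their part in the result was not tested.

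**Figure D5:**
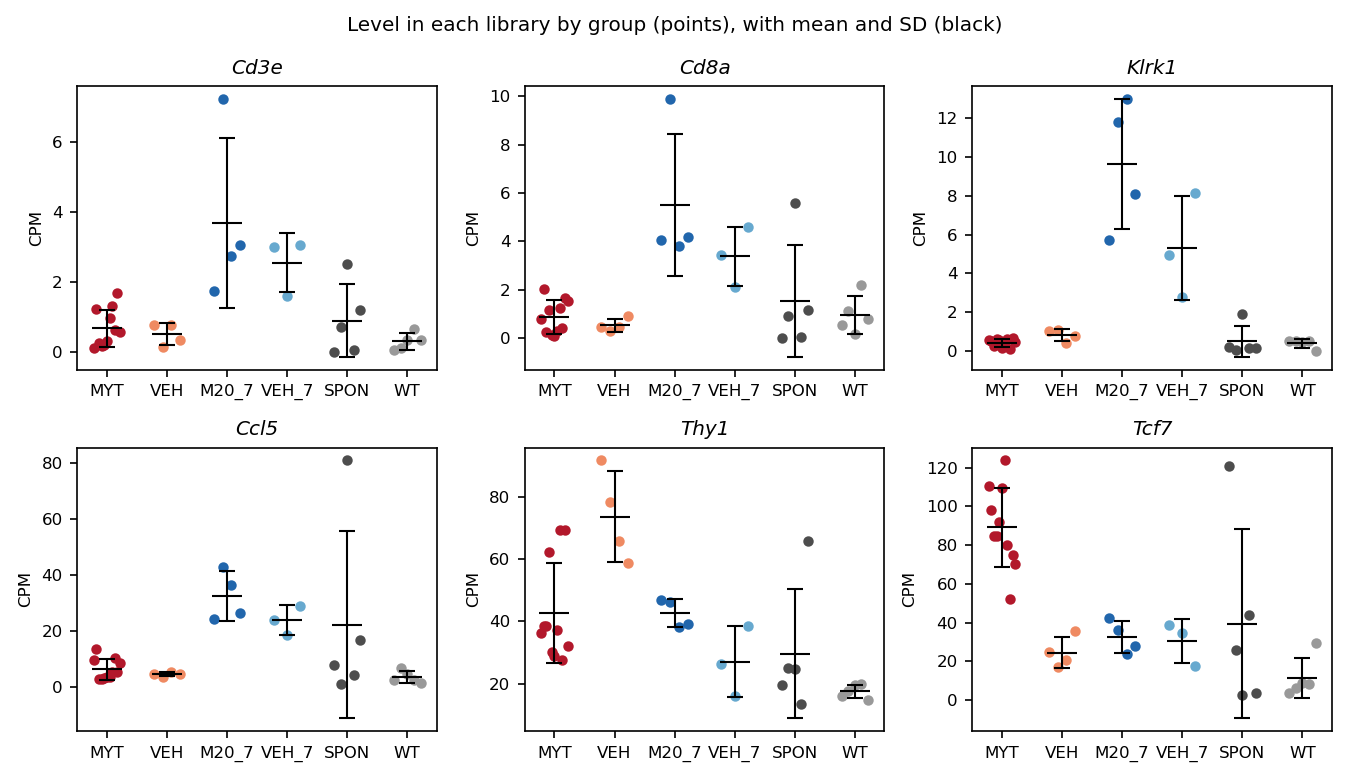
CPM of Cd3e, Cd8a, Klrk1, Ccl5, Thy1 and Tcf7 in each library by group, with the group mean and SD as bars. Cd3e, Cd8a, Klrk1 and Ccl5 are lower in VEH than in VEH_7 without overlap, Thy1 is higher in VEH without overlap, and every MYT library lies above every VEH library for Tcf7.

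Among the untreated tumours, 11 of the 32 genes had enough counts to be tested in SPON against WT, and edgeR called none, where it called 8.38% of 15558 genes, 4.52% higher and 3.86% lower. By unadjusted p under 0.05 there was 1, Ccl5. It had 8.01, 1.34, 81.1, 4.45 and 16.8 CPM in SPON, against 2.54, 6.92, 4.81, 2.52 and 1.61 CPM in WT, and the groups overlapped. The log2 fold change was 2.59 ± 0.93 (adjusted p 0.104). DESeq2 called 2 of the 32 genes, Ccl5 (2.60) and Trac (2.53), and limma voom 0. Without SPON replicate 2, edgeR called Ccl5 at 2.88 (adjusted p 0.0421). Without SPON replicates 1 and 5, those with the high mitochondrial share, it called 0.

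SPON replicate 3 was the highest of its group for 25 of the 32 genes. It had 5.58 CPM of Cd8a, against 0 to 1.19 CPM in the other SPON libraries and 0.552, 1.14, 0.178, 2.22 and 0.779 CPM in WT, and 2.52 CPM of Cd3e, against 0 to 1.19 CPM in the other SPON libraries and 0.0552, 0.127, 0.357, 0.656 and 0.334 CPM in WT. Its B cell and plasma cell markers summed to 145.0 and 297.2 CPM, and those of SPON replicate 5 to 118.1 and 114.3 CPM. The other SPON libraries had 8.6 to 22.2 CPM of B cell markers and 4.9 to 26.0 CPM of plasma cell markers. Tcf7 followed another order, with 121, 25.7, 2.52, 44.0 and 3.87 CPM in SPON replicates 1 to 5, lowest in replicate 3, against 3.47, 6.22, 8.79, 8.43 and 29.3 CPM in WT. It was not called at 1.82 ± 0.94 (adjusted p 0.24).

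MYT tumours set against untreated SPON tumours gave 1 call among 14 tested genes, where 28.5% of all genes were called, 9.46% higher and 19.1% lower. Ccl5 had 3.03 to 13.5 CPM in MYT with a median of 5.34, against the SPON values above, and fell by 1.89 ± 0.62 on the log2 scale (adjusted p 0.0286). This call rested on SPON replicate 3, without which the difference was -0.29 (adjusted p 0.719). It was also lost without any 1 of MYT replicates 3 to 6 (adjusted p 0.0513 to 0.0521) and by limma voom (adjusted p 0.469). Tcf7 was at 1.10 ± 0.58 (adjusted p 0.161). Without SPON replicates 1 and 5, 4 genes were called. Tcf7 (1.86) and Thy1 (0.98) were higher in MYT, and Ccl5 (-2.22) and Gzmb (-3.01) lower. Over all genes 4137 were called in that fit, against 4480 with all libraries. Gzmb had too few counts to be tested with all SPON libraries, so its call is a description. SPON replicates 2 to 4 had 23, 69 and 4 counts of Gzmb.

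Within MYT, the only group with more than 10 libraries, 7 relations of Cd3e with other genes were examined on log2 CPM, and none passed after adjustment (permutation test with 100000 resamples, two-sided; smallest adjusted p 0.397 for Pearson's r and 0.316 for Spearman's rho). The highest were Gzmb (r 0.524, p 0.0967; rho 0.536) and Cd8a (r 0.507, p 0.113; rho 0.518), and the others were Prf1 (r 0.444), Ncr1 (r 0.266), Gzmf (r 0.21), Cd4 (r 0.132) and Ifng (r 0.055). Without the 2 libraries farthest from the median of Cd3e, r was 0.539 for Cd8a and 0.417 for Gzmb. With a prior count of 0.5 in place of 2 the libraries left out were others, and r was 0.819 for Cd8a and 0.37 for Gzmb.

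Over all 32 libraries, the mean log2 CPM of Cd3d, Cd3e and Cd3g was compared with that of 15056 other genes, as a description, since the libraries share groups and depth. The most alike were Gimap3, a GTPase of lymphocytes (r 0.909), Ptprcap, a partner of the phosphatase CD45 (0.863), Cd79b, a chain of the B cell receptor (0.859), Ighm, the heavy chain of IgM (0.846), and H2-T24, a nonclassical MHC gene (0.843). With group means removed, these values were 0.854, 0.798, 0.727, 0.799 and 0.652. Among the 32 genes themselves, the correlation with that mean was highest, outside the 3 genes averaged, for Cd2 (0.838). It was low for Gzmf (-0.003) and Thy1 (0.289) and negative for Tcf7 (-0.254), at 0.064 for Gzmf and -0.583 for Tcf7 with group means removed.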

How the data were processed

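RNA of 33 tumours was sequenced by a commercial provider after Trizol extraction, per the labels' protocols. The submitters' processing notes name STAR 2.7.10a, HTSeq, edgeR and the build GRCm38. Strandedness, annotation release and filters are not given in the sources used here. The authors deposited whole-number read counts per Ensembl gene and a log2 CPM table, which was not used. All 33 sample columns were matched to titles and 32 entered comparisons.

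Each comparison was fitted on its own groups by edgeR's quasi-likelihood test (version 4.0.16, R 4.3.3, with filterByExpr and TMM factors), with Benjamini-Hochberg adjustment over all genes tested and a threshold of 0.05. Standard errors were derived from the F statistics. CPM used TMM factors over the 32 libraries, and correlations used log2 CPM with a prior count of 2. RPKM divided CPM by the union exon length of GENCODE M21, which was matched to 54495 of the 54532 rows and to all 32 genes. Trbc1 and Trbc2 are near-identical copies, so their separate levels are uncertain. The _7 set was sequenced more deeply than the others, and the number of counts behind a gene limits the precision. No 2 libraries of a group were alike within counting noise: over 90 pairs, chi-square per degree of freedom was at least 16.12.

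The alternatives were limma voom (3.58.1), DESeq2 (1.42.0), edgeR with DESeq2's size factors or with low counts kept, 1 fit over the 32 libraries and leaving out each library. Leaving out VEH replicates 1 and 2 together, or SPON replicates 1 and 5, was added after seeing the data. Each fit was run on simulated counts with 200 changed genes, and the outcome is not reported here. The changed genes were drawn from those with more counts, so low counts, which many of the 32 genes had, were not covered. The members and the 22 lists (roles, pathways and markers of other cell types) were chosen with earlier results of these data known. All called genes are named, 10 of the 32 genes could be named whether called or not, and pathway genes were named from the 3 smallest p-values of a list, of which some are not reported here. Other genes without a call that are given with values, such as Cd247, Icos and Klrk1 in the _7 set, were chosen after their values were seen.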

Additional observations from a re-analysis of the deposited data

Results flagged for a closer look

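A library far from the rest of its group was found in 28 of 127 pairs of a gene and a group of 4 or 5 libraries. Genes of 1 cell type share their libraries. The Dixon cut-off used marks about 5% of pairs by chance for normally distributed values. It was applied to CPM that often rest on few counts, so 5% is not the chance share here. In M20_7 replicate 2 the values were 7.16 CPM for Cd3d, 8.4 CPM for Cd3g, 5.49 CPM for Cd247, 14.6 CPM for Cd4, 9.89 CPM for Cd8a, 5.09 CPM for Cd8b1, 7.42 CPM for Cd2 and 5.78 CPM for Trbc2, each far above the other 3 libraries. In SPON replicate 3 they were 4.42 CPM for Cd3g, 2.18 CPM for Cd247, 5.58 CPM for Cd8a, 4.69 CPM for Gzmb, 2.72 CPM for Nkg7, 1.9 CPM for Klrk1, 1.09 CPM for Klrd1, 0.612 CPM for Ncr1 and 81.1 CPM for Ccl5.

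SPON replicate 5 stood above its group for Thy1 (65.8 CPM) and SPON replicate 1 for Gzmf (0.933 CPM). In WT, replicate 4 stood above the others for Cd3d (0.555 CPM) and Gzmf (4.54 CPM), replicate 2 for Icos (0.127 CPM) and Trbc1 (0.952 CPM), and replicate 5 for Lck (6.79 CPM) and Tcf7 (29.3 CPM), while Klrk1 had no count in WT replicate 5 (0.0 CPM). In VEH, replicate 4 stood below the others for Lck (1.29 CPM) and replicate 1 was the only library with Ifng counts (0.0653 CPM). Several of these values, such as Icos and Ifng, rest on 1 or 2 counts.

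The log2 fold change of RP-6306 over vehicle tumours was called as different between the sets for 13 genes. In this test of the difference itself, 36.0% of all genes tested were called. The sets also differ in depth and in whatever the suffix stands for, which cannot be told apart from a difference in response. Klrd1, Ncr1, Icos and Fasl passed the count filter here with the _7 libraries added, so their calls are a description. Without VEH replicates 1 and 2, 7 of the 13 calls were lost, and in the fit over all 32 libraries 5. MYT over VEH minus M20_7 over VEH_7 was 1.77 for Tcf7 and lay below 0 for the other 12, at -3.02 for Cd247, -3.71 for Icos, -1.43 for Thy1, -2.64 for Lat, -5.65 for Gzmb, -8.64 for Gzmf, -6.74 for Prf1, -2.65 for Nkg7, -1.75 for Klrk1, -3.95 for Klrd1, -4.74 for Ncr1 and -3.11 for Fasl.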

How the results depend on the processing

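No paired analysis was possible because the labels give no replicate numbers. The number called among the 32 genes is followed in brackets by that over all genes. In MYT against VEH it was 7 (9531), and 11 (10202) with no filter on low counts and 12 (10286) by DESeq2. With 1 library left out it was 6 to 11 (8480 to 9669). For the difference between the sets it was 13 (6151), and 8 (3501) in the fit over all 32 libraries. It was 17 (6498) by limma voom, 6 (5204) without VEH replicates 1 and 2 and 9 to 15 (5047 to 6345) with 1 library left out. In SPON against WT it was 0 (1303), and 2 (2858) by DESeq2 and 5 (5472) in the fit over all libraries. With 1 left out it was 0 to 1 (506 to 1887). In VEH against VEH_7 it was 8 (4817), and 5 (2455) in the fit over all libraries and 7 to 9 (3227 to 4624) with 1 left out. In MYT against SPON it was 1 (4480), and 2 (5540) by DESeq2 and 2 (6514) in the fit over all libraries. It was 4 (4137) without SPON replicates 1 and 5 and 0 to 2 (3533 to 5997) with 1 left out. Among all groups it was 29 (15585), and 25 to 30 (15224 to 15901) with 1 left out. It was 0 in M20_7 against VEH_7 under every alternative.

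Over all genes, M20_7 against VEH_7 gave 0 calls, and 6 with no filter and 61 by DESeq2. SPON against WT gave 1303, and 2858 by DESeq2, 5472 in the fit over all libraries and 506 to 1887 with 1 left out. Of the alternatives for single genes, 666 kept direction and call, 72 lost the call, and 1 reversed: Gzme in MYT against VEH was -2.22 and was 1.17 without VEH replicates 1 and 2, where VEH replicates 1 and 2 alone held the high values. For the other changes the cause was not tested.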

Other observations

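Levels of Cd4 and Cd3e are given side by side without a test. Per exon length, Cd4 averaged 1.28 RPKM in MYT and 1.80 RPKM in VEH, and Cd3e 0.165 RPKM in MYT and 0.125 RPKM in VEH, while in the _7 set Cd4 averaged 1.95 RPKM in M20_7 and 1.0 RPKM in VEH_7, and Cd3e 0.903 RPKM in M20_7 and 0.625 RPKM in VEH_7. Cd4 is also carried by some mouse dendritic cells and macrophages.

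Among pathway genes outside the 32, log2 fold changes of RP-6306 over vehicle tumours also differed between the sets (MYT over VEH minus M20_7 over VEH_7, edgeR). Of 25 tested cytotoxic and NK genes, 9 were lower and 2 higher, where 18.9% of all genes tested were lower and 17.0% higher. Klrc1, which encodes the NKG2A chain that pairs with CD94, was at -4.74 ± 0.92 (adjusted p 0.000392), and Eomes, a transcription factor of NK cells and killer T cells, at -4.21 ± 0.85 (adjusted p 0.000549). Of 19 tested genes of T cell receptor signalling, 11 were lower and 1 higher, with Lcp2 at -1.84 ± 0.25 and Gata3, which luminal epithelium also expresses, at 1.60 ± 0.28.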
